A study of Mus musculus with 52 samples.

Results

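The 35 genes described here are kinases, phosphatases, adaptors and small GTPases that act below the insulin receptor, in the PI3-kinase and AKT arm, the RAS-MAPK arm and the set of proteins that brake the signal. They were chosen by name and make up 35 of the 46071 genes in the count table. All 35 were counted in all 52 libraries and all 35 passed the filter on low counts in every fit, so none is missing below. The libraries came from conscious, catheterised 3-month-old male C57BL/6J mice, an inbred laboratory strain, sampled after 3 h of a clamp, in which infused glucose holds blood glucose steady. Mice received saline, 4 mU/kg/min insulin (the low rate) or 12 mU/kg/min insulin (the high rate). RNA was taken from hypothalamus (5 saline, 6 low and 5 high libraries), hippocampus (6 of each) and nucleus accumbens (6 of each). The labels give no replicate identity of the animals, so p-values measure the spread between libraries, which may in part be technical. The glucose infusion accompanies the insulin, and the effects of both cannot be told apart.

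When insulin binds its receptor, docking proteins recruit PI3-kinase, a dimer of a catalytic and a regulatory subunit, whose lipid product brings PDK1 and AKT to the membrane. AKT then phosphorylates GSK3 and other targets, while GRB2 and SOS load RAS with GTP and start the RAF, MEK and ERK cascade. In the hypothalamus this signalling acts on feeding and on glucose output by the liver. Most of these steps run by phosphorylation and protein contact, which an RNA library does not measure.

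Total counts per library ran from 2453412 to 8279612, and the 35 genes together held between 10519 and 32668 counts of a library. In 10 libraries GC-rich genes stood high as a class, with a Spearman correlation above 0.4 across genes between the deviation from the region's mean and transcript GC. These GC-leaning libraries were 3 of the 5 saline libraries of the hypothalamus, 0 of its 11 insulin libraries, and 4 and 3 libraries spread over all infusions of the hippocampus and the accumbens. In 5 hypothalamic insulin libraries, 3 low and 2 high, and in 0 saline libraries, 1 or more of 5 neuropeptide genes of this region (Pomc, Oxt, Avp, Pmch, Hcrt) fell short of 1 CPM (counts scaled to a common library size). The summed peptide level had medians of 939.9 CPM with saline, 574.9 at the low and 670.3 at the high rate. All 5 genes lay below 0 at both rates, with median log2 fold changes of -1.95 and -1.41, and 0 passed the edgeR test. At the low rate 1 of 2 tested ependymal and tanycyte markers passed as lower in hypothalamus. Of 5 astrocyte and 4 endothelial markers, 1 each passed as higher, where 5.38% of all genes passed. The results without the libraries short of a peptide and without the leaning ones stand beside the genes they touch. In bulk tissue, fewer cells of a type and less RNA per cell cannot be told apart.

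A pair of upstream stretches is shown because their genes bear on what follows: Akt1 held most of the AKT RNA counted here, and Grb10 differed more from hippocampus in both other regions than any other of the 35. Both are RefSeq promoter windows of GRCm38.p6, cut to the 250 bases before the start site, and both lie outside every annotated exon. Bases just past each start occur in a GENCODE M21 transcript of the same gene. The Akt1 stretch is chr12:112674885-112675134 on the minus strand, upstream of the gene, with the FOXO core (GTAAACA, or TGTTTAC on the other strand) in capitals. The Grb10 stretch is chr11:12027972-12028221 on the minus strand, inside the Grb10 gene, with its 8 CpG sites in capitals. Each gene has another window that is not shown. That of Akt1, chr12:112674277-112674526, holds 31 CpG sites and no FOXO core. That of Grb10, chr11:12037421-12037670, holds 40 CpG sites, and bases past its start were not found in a transcript of the gene.
Akt1: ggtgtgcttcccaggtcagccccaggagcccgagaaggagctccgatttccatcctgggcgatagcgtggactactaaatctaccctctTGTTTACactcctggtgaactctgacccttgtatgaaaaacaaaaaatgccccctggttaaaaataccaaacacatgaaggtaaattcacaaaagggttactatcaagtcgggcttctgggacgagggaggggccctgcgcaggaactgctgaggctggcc
Grb10: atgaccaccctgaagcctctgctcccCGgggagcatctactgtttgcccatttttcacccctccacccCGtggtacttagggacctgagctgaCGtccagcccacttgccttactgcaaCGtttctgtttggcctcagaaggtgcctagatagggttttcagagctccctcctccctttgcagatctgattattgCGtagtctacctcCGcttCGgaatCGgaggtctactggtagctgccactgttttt

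FOXO factors are the transcription factors that AKT holds out of the nucleus, so their core was searched on both strands. It was found upstream of 2 members, among 33 members with a promoter entry and 48 windows. These were Akt1, 161 bases before the start of the stretch shown, and Nras, 188 bases before its start. Of all 32851 mouse promoter windows of the same length, 3.17% held it. The cAMP response element (TGACGTCA, the same on both strands) lay upstream of Braf and Ptpn11, against 1.55% of all windows. A match is a description of letters and not a bound site. The member windows held a median of 17.5 CpG sites, against 6 over all windows.

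Levels between genes are compared as CPM per kilobase of exon, averaged over all libraries of a region (16, 18 and 18). Map2k1, the kinase MEK1, stood highest in every region, at 68.6 ± 8.82 in hypothalamus, 111.2 ± 15.4 in hippocampus and 103.7 ± 11.7 in accumbens (SD over libraries). Mapk3 (the kinase ERK1), Grb2 (the adaptor that carries SOS) and Gsk3b (a kinase AKT inhibits) followed in hypothalamus at 52.2 ± 14.0, 45.8 ± 6.17 and 49.3 ± 12.1, which do not differ beyond their spread. Pde3b, the cAMP phosphodiesterase that AKT activates, was lowest in hypothalamus, at 1.78 ± 0.50, and in accumbens, at 1.55 ± 0.34, and had 1.56 ± 0.41 in hippocampus. Cbl, a ubiquitin ligase that ends receptor signalling, was lowest in hippocampus, at 1.17 ± 1.11, and had 2.04 ± 1.10 and 2.18 ± 1.12 in hypothalamus and accumbens. Sh2b2, Shc1 and Grb14 also lay in this lowest group, and neighbours in it do not differ beyond their spread. In hippocampus the SD of Cbl was about as large as its mean. Ranking by the longest transcript in place of the exon union gave nearly the same order, with Spearman correlations of 0.967, 0.965 and 0.971 over the 35 genes.

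**Figure D1:**
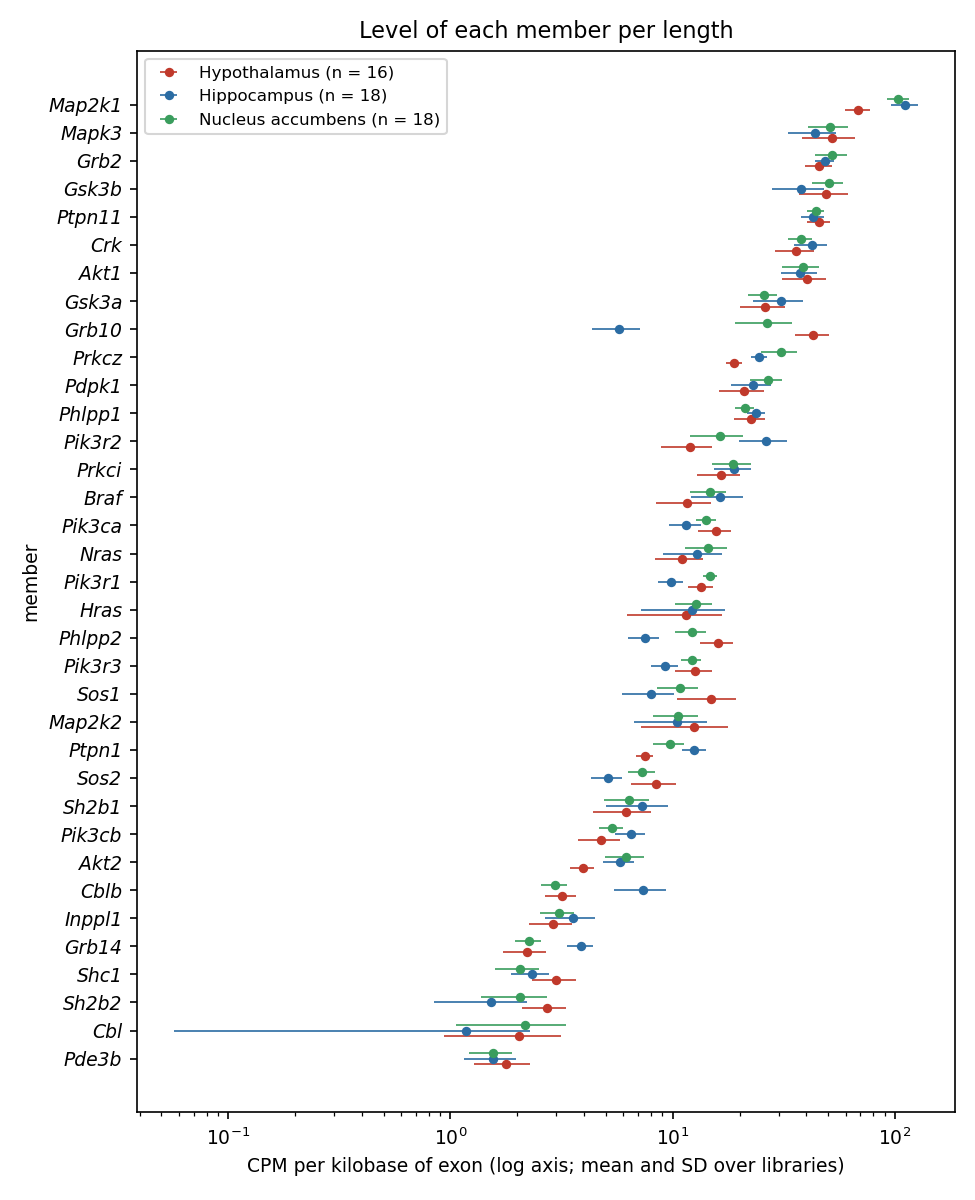
Mean level of each of the 35 genes per kilobase of exon (horizontal, log axis, CPM per kb) in hypothalamus (red, n = 16), hippocampus (blue, n = 18) and nucleus accumbens (green, n = 18), with SD over libraries of all 3 infusions. Rows are ordered by the mean over regions, with Map2k1 at the top and Pde3b at the bottom, and Grb10 shows the widest gap between regions, from 43.0 in hypothalamus to 5.74 in hippocampus.

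Within families, the balance of paralogs differed by region in some cases and hardly in others. Of the 2 AKT genes counted here, Akt1 held 90.7% ± 1.92 of the summed level per kilobase in hypothalamus, 86.5% ± 2.19 in hippocampus and 86.0% ± 2.69 in accumbens. Of the sum of the catalytic subunits Pik3ca (p110-alpha) and Pik3cb (p110-beta), Pik3ca held 76.7% ± 3.76, 63.9% ± 4.53 and 72.6% ± 3.40. Pik3cd, which is also expressed, is not in this sum.

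By the exon union the regulatory subunits held similar mean shares in hypothalamus over libraries of all 3 infusions. Pik3r1, Pik3r2 and Pik3r3 held 35.2% ± 3.8, 31.6% ± 8.5 and 33.1% ± 5.3, and Pik3r2 ranged from 22.3% to 49.7%. By the longest transcript the shares were 39.95%, 33.29% and 26.76%, so this balance depended on the choice of length. In hippocampus Pik3r2 (p85-beta) held 57.1% ± 7.78. The counts of Pik3r2 carry a limit, since its exons overlap a gene on the opposite strand and no source used here says whether reads were counted by strand. The same limit holds for Gsk3a, Braf and Inppl1. Pik3r3 overlaps an exon of a predicted gene on its own strand, and Akt2 and Nras have named pseudogenes.

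Among the brakes, Grb10 took 94.9% ± 1.76 of the Grb10 and Grb14 sum in hypothalamus and 91.6% ± 2.82 in accumbens but 59.1% ± 6.25 in hippocampus. Both encode adaptors that bind the activated insulin receptor and limit its signal. By the longest transcript Grb10 took 92.9% in hypothalamus, 88.4% in accumbens and 50.4% in hippocampus. Cblb, another CBL ubiquitin ligase, took 64.2% ± 14.0, 87.4% ± 8.99 and 60.3% ± 13.3 of the CBL pair. The AKT phosphatase pair split 58.5% to Phlpp1 in hypothalamus and 76.1% in hippocampus. Hras and Nras shared their sum about evenly in all 3 regions, at 49.6%, 48.1% and 46.9% for Hras.

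In the hypothalamus at the low insulin rate, Cbl and Pik3r3 rose and Sh2b1 fell, and the other 32 genes did not pass the test. With edgeR's quasi-likelihood test adjusted over all 14139 genes, 3 of 35 members were called, 2 higher and 1 lower, and 5.38% of all genes were called. At an unadjusted p under 0.05 the members numbered 15 (9 higher, 6 lower) against 29.9% of all genes, and DESeq2 called 8 against 12.0%. The median log2 fold change of the 35 was 0.142, against -0.021 over all genes, with 22 of 35 above 0. By the edgeR call, a count of 3 in 35 is near the share over all genes and is no excess. The members' counts at the unadjusted threshold and with DESeq2 stood above the shares of all genes. The reading thus depends on the measure, and an excess was not tested. Which members were called also depended on the settings, as given for each gene below. The count rested on single libraries. It was 15 without saline library 4 and 13 without saline library 3 or low-rate library 1. It was 1 (Cbl) without saline library 1, 2 or 5 or low-rate library 2, 3, 4 or 6. The share of all genes called in these fits is not given here, so the counts show no change particular to the members.

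Cbl (ENSMUSG00000034342, chr9:44142976-44234049, minus strand) had 8.51, 7.72, 8.64, 16.4 and 1.55 CPM in the 5 saline libraries. In the 6 low-rate libraries it ranged from 19.9 to 44.7 with a median of 35.8. In the 5 high-rate libraries it had 26.1, 28.6, 42.4, 35.7 and 21.1. All 11 insulin libraries lay above all 5 saline libraries. The mean rose from 8.57 ± 5.29 (SD, n = 5) to 34.4 ± 8.42 (n = 6) at the low rate, a log2 fold change of 2.07 (SE 0.33, edgeR adjusted p = 0.00417). At the high rate it was 30.8 ± 8.39 (n = 5), with a log2 fold change of 1.91 (SE 0.34, edgeR adjusted p = 0.0188). Both comparisons share the same 5 saline libraries.

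The saline libraries with a GC lean had 8.51, 7.72 and 1.55 CPM of Cbl, and the other saline libraries 8.64 and 16.4. Terms for the tag range and the tag run gave log2 fold changes of 1.91 (edgeR adjusted p = 0.0538) and 2.05 (0.0584) at the low rate and 1.71 (0.416) and 1.79 (0.416) at the high rate. With the GC lean as a covariate they were 1.72 (adjusted p = 0.101) and 1.58 (adjusted p = 0.316). These 3 terms each ended the call at both rates, while the fold change kept its direction. Without the libraries lacking a peptide the log2 fold change was 2.17 at the low rate (edgeR adjusted p = 0.0447) and 1.87 at the high rate (adjusted p = 0.136). Without the GC-leaning libraries it was 1.55 at the low rate (edgeR adjusted p = 0.206) and 1.39 at the high rate (adjusted p = 0.637). With the lean to long transcripts as a covariate it was 1.61 (adjusted p = 0.00219) and 1.52 (adjusted p = 0.00537). Within the third of 3 ranges of library tag numbers, a possible batch with 3 libraries of each infusion, Cbl had 1.55, 8.64 and 16.4 CPM with saline, 31.1 to 35.9 at the low rate and 21.1 to 42.4 at the high rate. The first range, with 2 saline libraries at 7.72 and 8.51 and 1 low-rate library at 19.9, had the same direction, and the second holds no saline library. Leaving out any 1 library kept the low-rate call in 11 of 11 fits, while at the high rate it was lost in 4 of 10, without saline library 1 (adjusted p = 0.0754) or 2 (0.112) or high-rate library 3 (0.0575) or 4 (0.0696).

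Cbl also varied widely inside groups of the other regions. In hippocampus it ranged from 4.93 to 9.37 CPM with saline, from 1.00 to 22.6 at the low rate and from 7.94 to 51.4 at the high rate, where 2 of 6 libraries stood at 47.2 and 51.4 and the others at 11.8 or less. In accumbens it ranged from 11.8 to 52.4 with saline, 9.18 to 36.2 at the low rate and 6.17 to 40.9 at the high rate. The groups overlapped in both regions. In accumbens, Slc17a7, a marker of pyramidal neurons that striatal projection neurons lack, was at 730, 558.8 and 546.4 CPM in saline library 3, low-rate library 4 and high-rate library 5, where Cbl had 11.8, 9.18 and 18.2 CPM, and at 270.6 or less in the other 15. Accumbens high-rate libraries 2 and 1 had 6.17 and 9.23 CPM of Cbl beside 6.45 and 48.6 of Slc17a7. Their leans to long transcripts, -0.426 and -0.282, were the lowest of the accumbens. Low-rate library 1, at -0.196, had 29.1 CPM of Cbl. The part of this lean in the Cbl values of single libraries was not tested. Accumbens saline library 1, at 270.6 CPM of Slc17a7, had 32.4 of Cbl. The part of Slc17a7-rich tissue in the insulin comparisons of the accumbens was not tested. The change in accumbens against that in hypothalamus differed by -2.73 at the low rate on the log2 scale, and this difference between regions did not pass the adjusted test, as given below.

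**Figure D2:**
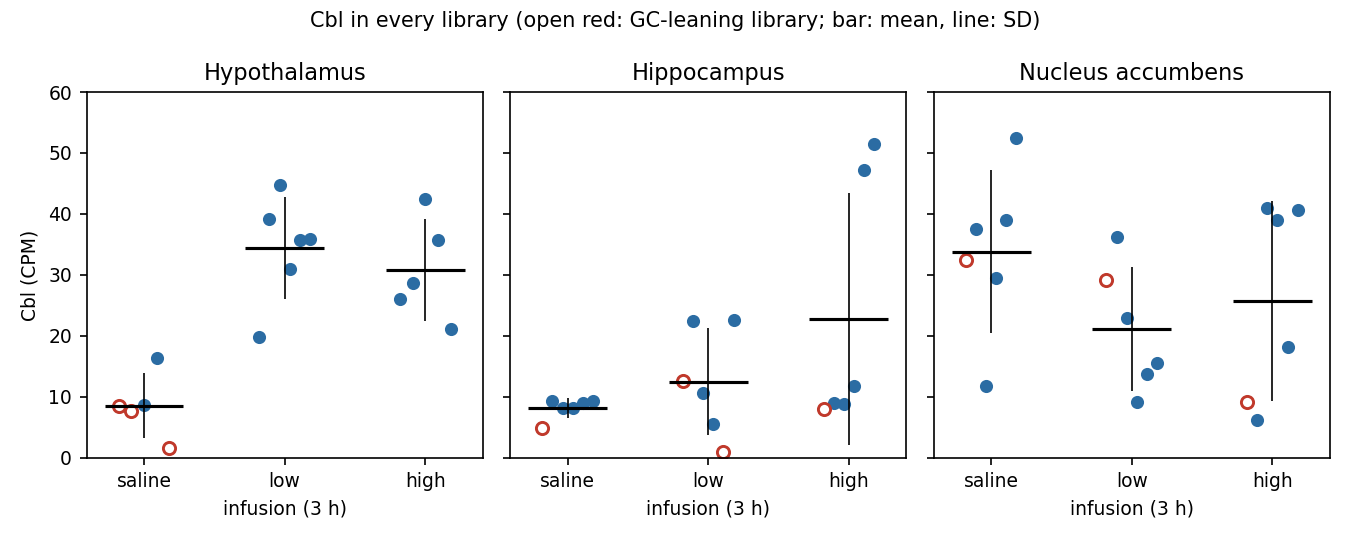
Cbl in CPM (vertical, linear axis from 0) in every library by region and infusion, with the mean (bar) and SD (line) of each group and GC-leaning libraries as open red circles. In hypothalamus the 5 saline libraries lie at 16.4 or below and the 11 insulin libraries at 19.9 or above, while the groups overlap in the other regions.

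Among the adaptors, Sh2b1 fell at the low rate. It encodes an SH2 domain adaptor that binds the insulin and leptin receptors and strengthens their signal. Its 5 saline libraries had 35.0, 41.2, 24.8, 23.4 and 36.3 CPM, and the 6 low-rate libraries ranged from 19.3 to 23.3 with no overlap. The mean went from 32.2 ± 7.70 to 21.6 ± 1.70, a log2 fold change of -0.59 (SE 0.15, edgeR adjusted p = 0.0391). At the high rate, with 17.6, 17.8, 17.4, 20.6 and 25.6 CPM, the log2 fold change was -0.71 (SE 0.16) and the adjusted p 0.0688, so the call was not reached. The 3 highest saline libraries are the 3 with a GC lean, and without these 3, with 2 saline libraries remaining, the low-rate change was -0.17 (adjusted p = 0.876). The paralog Sh2b2 had log2 fold changes of -0.35 (adjusted p = 0.186) and -0.43 (adjusted p = 0.176). Sos1, a nucleotide exchange factor for RAS, stood at 0.67 (SE 0.21, adjusted p = 0.0666) and 0.58 (adjusted p = 0.155).

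Among the PI3-kinase subunits, Pik3r3, the regulatory subunit p55-gamma, rose at the low rate. Saline libraries had 49.8, 45.8, 55.3, 71.5 and 47.6 CPM, low-rate libraries 64.4 to 92.5 (median 73.3) and high-rate libraries 66.4, 67.1, 84.7, 70.5 and 66.8. The saline library at 71.5 overlapped the insulin groups and the other 4 lay below all of them. The log2 fold changes were 0.48 (SE 0.13, edgeR adjusted p = 0.042) and 0.41 (SE 0.14, adjusted p = 0.14). Without GC-leaning libraries the low-rate value was 0.25 (adjusted p = 0.822), and with a term for the tag range in the model 0.44 (adjusted p = 0.142). Sh2b1 and Pik3r3 lost their low-rate calls in 9 of 13 other settings each, and in 8 and 7 of the 11 fits that left out 1 library.

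The remaining subunits did not pass the test. Pik3ca and Pik3r1 stood higher in most insulin libraries, with low-rate log2 fold changes of 0.42 (SE 0.13) and 0.32 (SE 0.11, adjusted p = 0.0693), and Pik3r2 lower, at -0.50 (SE 0.17, adjusted p = 0.0747). Pdpk1, which encodes PDK1, the kinase that activates AKT, had 0.49 (adjusted p = 0.0854). Akt1 and Akt2 had -0.18 (adjusted p = 0.488) and -0.18 (adjusted p = 0.304), each within the spread of its saline libraries. Of the AKT targets, Gsk3b had 0.51 (adjusted p = 0.0829) and its paralog Gsk3a -0.38 (adjusted p = 0.118).

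The RAS-MAPK arm held values in both directions and 0 called members by edgeR. Braf, a RAF kinase, had the highest value of this arm at 0.65 (SE 0.20, adjusted p = 0.0606), and its saline libraries ran from 62.8 to 184 CPM against 126 to 224 at the low rate. Map2k2, the kinase MEK2, had the lowest value of all 35 at -0.63 (SE 0.25, adjusted p = 0.112). Hras and Mapk3 had -0.47 and -0.39. Of the 8 brakes, 7 lay above 0, but beyond Cbl none passed, and Ptpn1, the phosphatase PTP1B that dephosphorylates the insulin receptor, had -0.13 (adjusted p = 0.364).

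**Figure D3:**
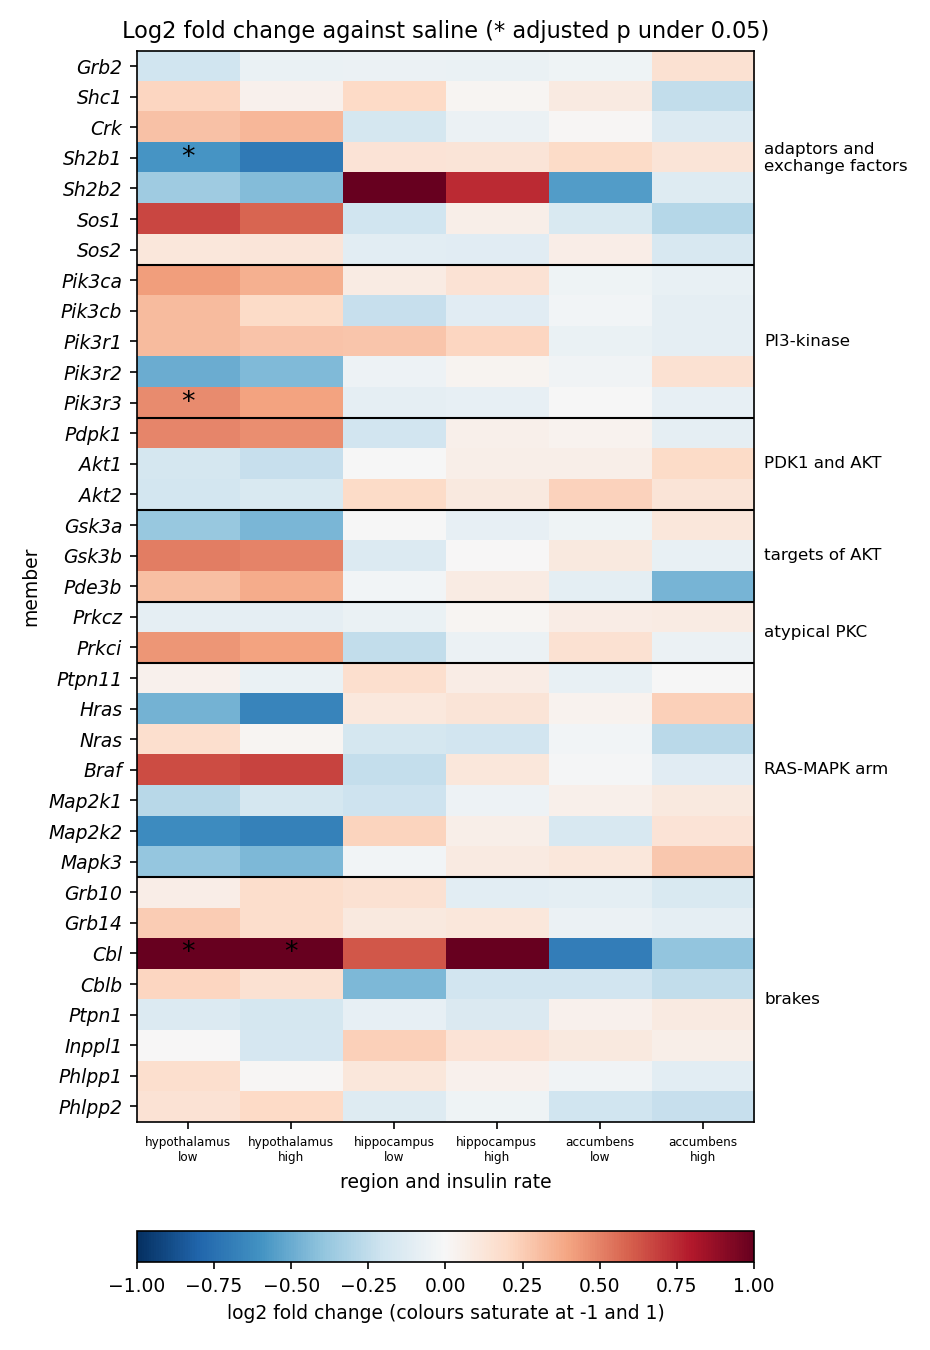
Log2 fold change against saline (colour, red higher and blue lower, saturating at -1 and 1) of the 35 genes in rows, grouped by role, for the low and high rate in each region in columns. Asterisks mark an edgeR adjusted p under 0.05: Sh2b1, Pik3r3 and Cbl in the hypothalamus at the low rate and Cbl at the high rate.

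At the high rate in the hypothalamus, Cbl was the 1 called member of 35, against 0.184% of all genes (26 of 14139). At an unadjusted p under 0.05 there were 16 members (9 higher, 7 lower) against 24.1% of all genes, and DESeq2 called 2, Sh2b1 and Cbl, against 2.54%. The edgeR count was 11 without saline library 4, 2 without saline library 3 and 0 without saline library 1 or 2 or high-rate library 3 or 4. For these fits too the share of all genes is not given here. The median log2 fold change was 0.04 with 20 of 35 above 0. Groups did not overlap for 3 members at the low rate (Sh2b1, Pik3ca and Cbl, with 2.57% of all genes) and 2 at the high rate (Cbl and Ptpn1, with 2.68%). Ptpn1 lay at 39.5 ± 2.20 CPM in the high-rate libraries, below its saline mean of 44.7 ± 1.47, with a log2 fold change of -0.18 (adjusted p = 0.282). Between the 2 rates, 0 members were called by edgeR (0.0% of all genes), 0 by DESeq2 (0.0%) and 0 at an unadjusted p under 0.05 (1.41% of all genes), and no log2 fold change between the rates lay beyond -0.19 or 0.13.

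The order of the 35 genes by change in the hypothalamus followed their transcripts' GC content and length. The Spearman correlation of the low-rate log2 fold change with transcript GC was -0.82 over the 35 genes and -0.62 over all genes tested. With exon length it was 0.73 over the members and 0.38 over all genes. At the high rate, which shares the saline libraries, the members' values were -0.83 and 0.74. Genes share libraries, so these are descriptions. Sos1 (41.0% GC), Braf (42.6%) and Pik3ca (41.2%) lay at the AT-rich end and above 0, and Sh2b1, Map2k2 (60.4%) and Pik3r2 (61.4%) at the GC-rich end and below 0. The Gsk3 pair separated in the same way, with Gsk3b at 46.1% GC and Gsk3a at 59.8%. Other pairs did not. Phlpp1 (55.3% GC) and Phlpp2 (48.65%) both lay above 0, and Akt1 (59.7%) and Akt2 (55.2%) both had -0.18. Inppl1, at 57.0% GC, also lay above 0. Cbl, at 46.9% GC and with 12345 bases of exon, stood far above genes of like GC.

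The libraries themselves leaned by group. The median lean to GC-rich genes was 0.415 in saline, -0.258 in low-rate and -0.112 in high-rate hypothalamic libraries, and the median lean to long transcripts was -0.207, 0.188 and 0.17. With the GC lean as a covariate 0 members were called at either rate. With the length lean as a covariate, or both leans together, Cbl was the 1 member called at each rate. Between the 2 insulin rates the members' correlation with GC was -0.12. The part of these leans in the changes of single genes was otherwise not tested.

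**Figure D4:**
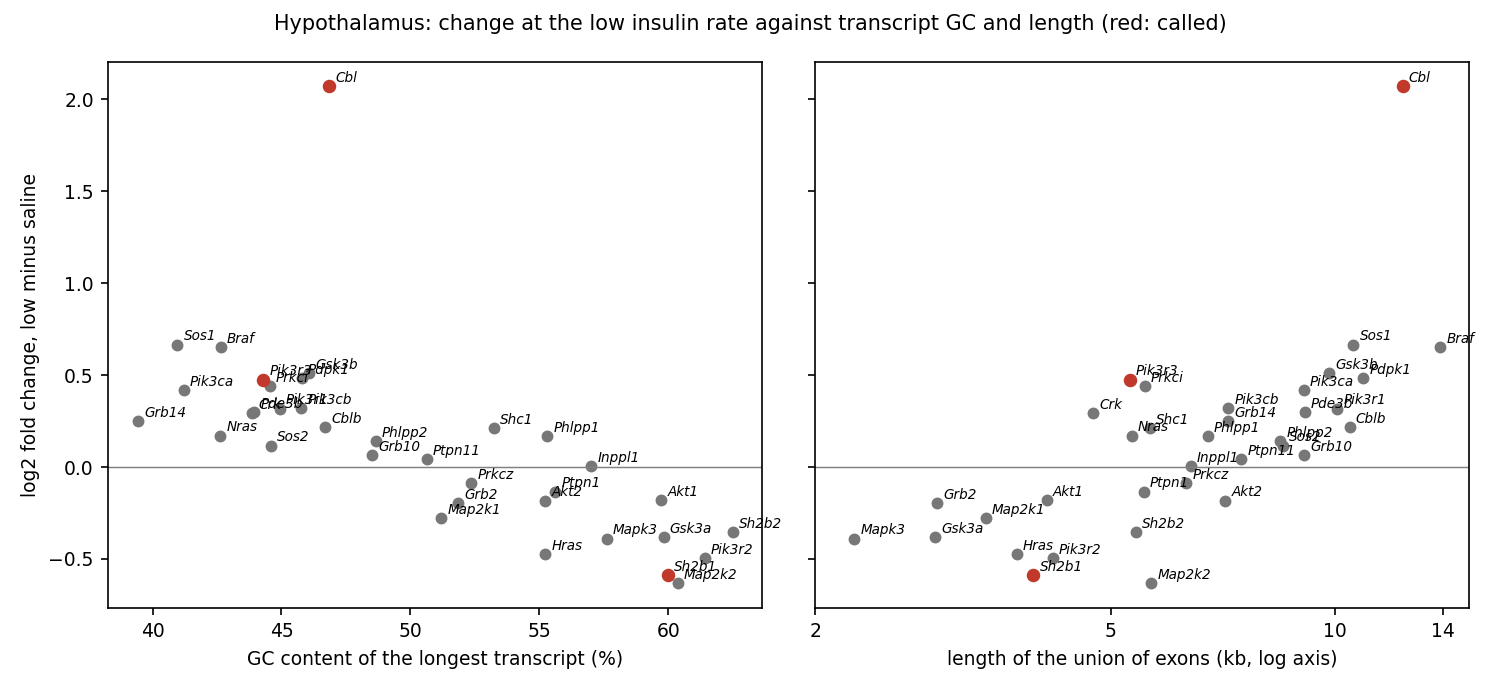
Log2 fold change of each of the 35 genes in the hypothalamus at the low rate (vertical) against GC content of the longest transcript (left, percent) and exon length (right, kb, log axis), with the 3 called genes in red. Values fall with GC and climb with length, and Cbl at 2.07 lies apart from the rest.

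In the hippocampus and the accumbens 0 of 35 members were called by edgeR at either rate or between rates, where 0.0% of all genes were called in each of the 6 contrasts. DESeq2 also called 0 members in all 6, against 0.281% of all genes at the low rate in hippocampus and 0.0% in the other 5. At an unadjusted p under 0.05, hippocampus had 2 members at the low rate (6.05% of all genes), 2 at the high rate (2.61%) and 0 between rates (2.84%). In accumbens there was 1 member at the low rate (1.42%), 2 at the high rate (2.37%) and 1 between rates (2.12%). The range of the 35 log2 fold changes was -0.45 to 1.03 and -0.19 to 1.48 in hippocampus and -0.69 to 0.23 and -0.47 to 0.27 in accumbens, for the low and high rate.

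Sh2b2, an adaptor of the insulin receptor, ranged from 2.40 to 8.13 CPM with saline in hippocampus, from 5.87 to 18.6 at the low rate and from 6.38 to 12.0 at the high rate. Its log2 fold change was 1.03 (SE 0.29, unadjusted p = 0.00178, edgeR adjusted p = 0.293) at the low rate and 0.74 (adjusted p = 1.0) at the high rate. In the same hippocampal groups the summed level of 5 oligodendrocyte markers was 2466 to 4575 CPM with saline, 5306 to 16570 at the low rate and 4885 to 6889 at the high rate, so both insulin groups lay above all saline libraries. That of 4 choroid plexus markers had medians of 121.6, 2215 and 568.1 CPM with ranges that overlapped. By edgeR 0 of these 9 marker genes passed, all 9 lay above 0 at both rates, and their part in the values of Sh2b2 and the other members was not tested. In accumbens Sh2b2 had a log2 fold change of -0.56 (adjusted p = 1.0) at the low rate. The regulatory subunit Pik3r1 went from 88.4 ± 8.16 to 107.1 ± 15.3 CPM (n = 6 each) in hippocampus, 0.28 (adjusted p = 0.635). Pde3b in accumbens ranged from 12.7 to 18.0 CPM with saline and from 8.96 to 13.8 at the high rate, overlapping in part, with -0.47 (SE 0.16, adjusted p = 1.0). Cblb in accumbens had -0.24 at the high rate (adjusted p = 1.0).

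Whether the response to insulin differed between regions was tested as an interaction in 1 fit of all 52 libraries. By edgeR 0 members and 0.0% of all genes were called in each of the 6 interactions. This fit, and the comparisons of regions below, took libraries as independent. The labels do not tell whether the 3 regions came from the same mice, so a pairing could not be modelled. For hypothalamus against hippocampus, 12 members had an unadjusted p under 0.05 at the low rate (24.3% of all genes) and 6 at the high rate (9.5%). For accumbens against hippocampus there were 2 (5.27%) and 3 (2.38%). For accumbens against hypothalamus there were 10 (14.1%) and 15 (18.8%). The smallest adjusted p of a member was 0.103. DESeq2 was not run on the interactions. A call in hypothalamus beside none in the other regions is therefore not shown to be a difference between regions.

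Other genes of the pathway, a list of 36, held receptors, docking proteins, TOR subunits, FOXO factors and feedback inhibitors. In hypothalamus at the low rate 1 of 36 rose, Rictor, a subunit of TOR complex 2, by 0.86 on the log2 scale (edgeR adjusted p = 0.0351), and 0 fell, where 5.38% of all genes were called. The list's median log2 fold change was 0.12. No other insulin contrast called any of the 36.

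Between regions under saline the same 35 genes differed far more. In hypothalamus against hippocampus 15 members were called with edgeR, 3 higher and 12 lower, against 44.1% of all genes (22.9% higher, 21.1% lower). In accumbens against hippocampus 11 were called, 5 higher and 6 lower, against 27.9% (14.2% higher, 13.7% lower). In accumbens against hypothalamus 7 were called, all higher, against 29.0% (13.9% higher, 15.1% lower). Without saline hypothalamus library 3 or 4 the count was 15, and the share of all genes in those fits is not given here. In total share the members were near the background in the pairs with hippocampus and below it in the third pair. The members called lower in hypothalamus against hippocampus (12 of 35) and higher in accumbens against hypothalamus (7 of 35) stood above the share of all genes in that direction, and the pairs share libraries. The saline libraries of the hypothalamus are also those in which the GC lean was most frequent.

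Grb10 (ENSMUSG00000020176, chr11:11930508-12038683, minus strand), an imprinted brake on receptor signalling, differed most. It had 356, 324, 439, 450 and 282 CPM in saline hypothalamus, 31.1 to 78.0 (median 48.4) in hippocampus and 133 to 308 (median 281.5) in accumbens. Hippocampal libraries lay below all libraries of both other regions. The log2 differences from hippocampus were 2.70 (SE 0.23, edgeR adjusted p = 1.03e-08) for hypothalamus and 2.21 (SE 0.22, adjusted p = 1.45e-07) for accumbens. Both were called in every one of the 23 and 24 other settings, between 2.55 and 2.96 and between 1.97 and 2.42. In accumbens the lowest Grb10 levels, 133, 119 and 124 CPM, were in the 3 libraries with the most Slc17a7, and without the saline libraries above 100 CPM of that marker the difference from hippocampus was 2.42 (adjusted p = 2.68e-08). With insulin the regions stayed apart, since in hippocampus Grb10 ranged from 43.0 to 80.8 CPM over the insulin libraries and in hypothalamus from 286 to 469.

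Cblb and the phosphatase gene Ptpn1 had the opposite order, highest in hippocampus. Cblb had 31.2, 28.5, 38.8, 34.5 and 19.0 CPM in saline hypothalamus, 66.8 to 112 in hippocampus and 30.0 to 38.5 in accumbens. Its log2 differences from hippocampus were -1.69 (SE 0.17, edgeR adjusted p = 6.6e-08) and -1.49 (SE 0.16, adjusted p = 2.37e-07), called in all other settings run. Ptpn1 had 44.7 ± 1.47 CPM in hypothalamus against 73.1 ± 8.18 in hippocampus, a log2 difference of -0.85 (adjusted p = 3.02e-06), and -0.60 in accumbens (adjusted p = 0.000169). Grb14 was at 14.2 ± 4.21, 26.5 ± 3.40 and 16.8 ± 1.60 CPM in hypothalamus, hippocampus and accumbens, with log2 differences of -1.04 and -0.77 from hippocampus. Of the receptor-level brakes, Grb14, Cblb and Ptpn1 were thus higher in hippocampus than in both other regions and Grb10 lower, and Cbl was lower there than in accumbens. Phlpp2, which encodes a phosphatase of AKT, was higher by 0.78 in hypothalamus and 0.69 in accumbens.

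**Figure D5:**
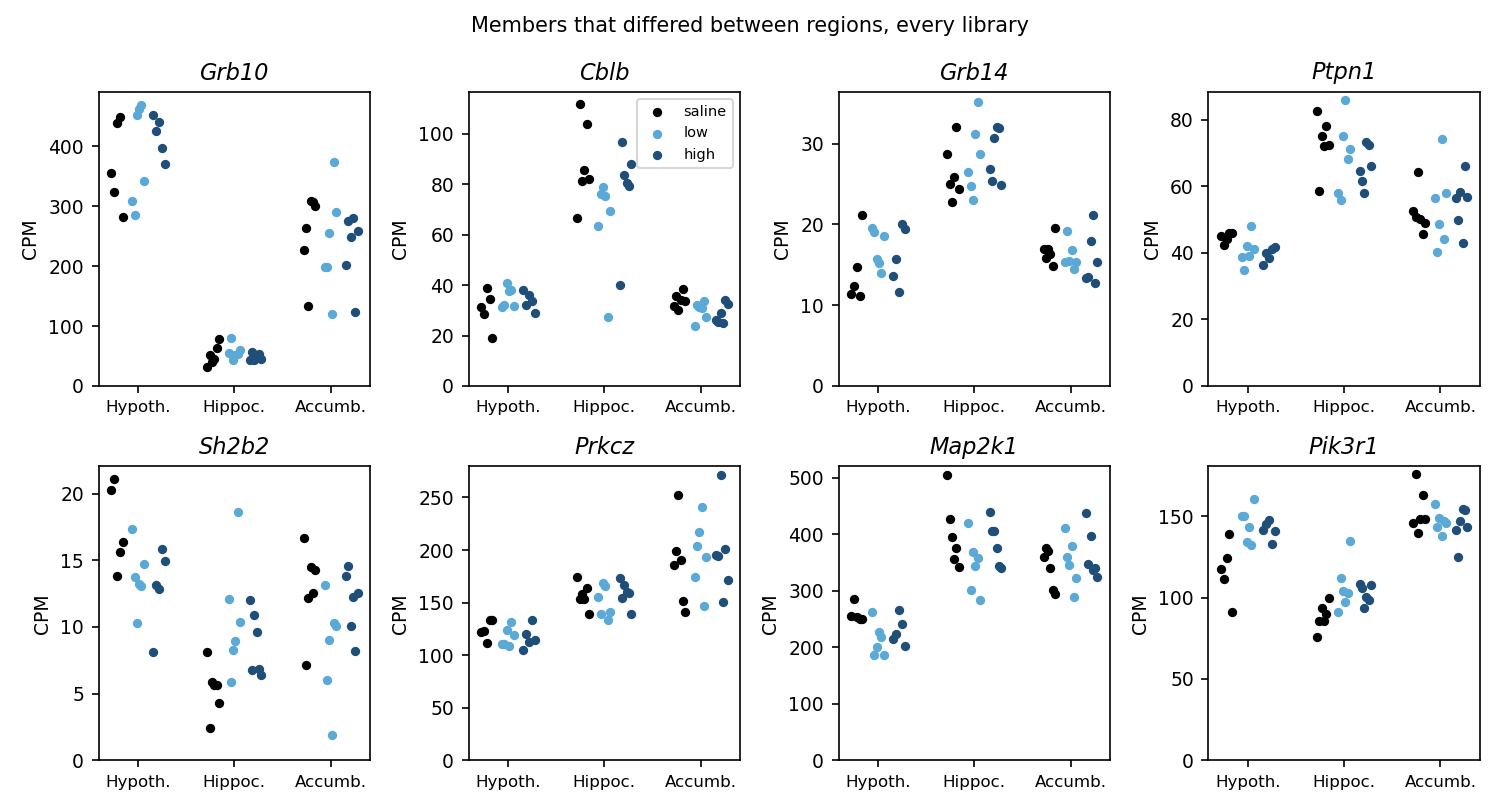
Levels in CPM (vertical, linear axes from 0) of 8 of the genes called between regions under saline, in every library of hypothalamus, hippocampus and nucleus accumbens, with saline in black, the low rate in light blue and the high rate in dark blue. On group means Grb10 is lowest and Cblb, Grb14 and Ptpn1 are highest in hippocampus at all 3 infusions, and hippocampal Cblb has 2 low libraries, at 27.4 and 39.9.

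Several kinases were lowest in the hypothalamus. Map2k1 had 259.1 ± 15.1 CPM there, against 399.9 ± 59.4 in hippocampus (log2 difference -0.77, edgeR adjusted p = 1.53e-05) and 340.1 ± 35.3 in accumbens (0.43, adjusted p = 0.00876). Prkcz, an atypical protein kinase C that acts below PDK1, had 124.6 ± 9.13, 157.0 ± 11.8 and 186.5 ± 39.4 CPM, and accumbens exceeded hypothalamus by 0.62 (adjusted p = 0.00136). Akt2 had a log2 difference of -0.48 between hypothalamus and hippocampus and of 0.45 between accumbens and hypothalamus (adjusted p = 0.0244). Braf and Pdpk1 were higher by 0.90 and 0.75 in accumbens than in hypothalamus (adjusted p = 0.00227 and 0.0026), and Braf had -1.17 in hypothalamus against hippocampus. Braf and Pdpk1 have 13862 and 10935 bases of exon. Their transcript GC is 42.6% and 45.8%, against a median of 47.3% over all genes.

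Subunits and adaptors divided by region too. Pik3r1 was higher in accumbens, at 153.7 ± 13.4 CPM, than in hippocampus at 88.4 ± 8.16 (0.69, edgeR adjusted p = 4.63e-05) and hypothalamus at 116.7 ± 17.6 (0.44, adjusted p = 0.00771). Pik3r2 was lower in hypothalamus and accumbens than in hippocampus, with log2 differences of -0.97 and -0.84. Sh2b2 was lowest in hippocampus, at 5.32 ± 1.89 CPM against 17.4 ± 3.12 in hypothalamus (1.61, adjusted p = 1.96e-05) and 12.9 ± 3.25 in accumbens (adjusted p = 0.000592). Cbl in saline libraries was higher in accumbens than in hippocampus (1.94, adjusted p = 0.000167) and hypothalamus (2.08, adjusted p = 0.000304).

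The insulin libraries, which the saline comparison did not use, allowed a repeat. Of the 15 members called for hypothalamus against hippocampus, 15 had the same sign at the low rate and 15 at the high rate, and 9 and 11 were called again. Of the 11 for accumbens against hippocampus, 10 and 11 had the same sign, and 7 and 8 were called again. Of the 7 for accumbens against hypothalamus, 6 and 6 had the same sign and 3 and 3 were called again. Cbl was the member of the last pair that turned, with -0.64 (edgeR adjusted p = 0.334) in low-rate and -0.20 (adjusted p = 0.842) in high-rate libraries. Its difference between accumbens and hippocampus was 0.64 (adjusted p = 0.302) and 0.06 (adjusted p = 0.958), so both saline calls of Cbl were lost. Sh2b2 turned in accumbens against hippocampus at the low rate (-0.40, adjusted p = 0.342) and had 0.34 (adjusted p = 0.273) at the high rate. In hypothalamus against hippocampus it had 0.19 (adjusted p = 0.636) and 0.41 (adjusted p = 0.139), where saline gave 1.61.

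Differences of several members were smaller in the insulin libraries. Braf in hypothalamus against hippocampus had -0.30 (edgeR adjusted p = 0.212) and -0.62 (adjusted p = 0.0242), and in accumbens against hypothalamus 0.27 and 0.13, not called. Pdpk1 in accumbens against hypothalamus had 0.33 and 0.22, also not called. Pik3r1 kept its call against hippocampus, at 0.36 and 0.40, and lost that against hypothalamus, at 0.09 and 0.09. Map2k1 in accumbens against hippocampus had -0.08 and -0.18 and lost its call. Others were as large or larger: Prkcz in accumbens against hypothalamus had 0.81 and 0.81, Akt2 had 0.90 and 0.75, and Map2k1 had 0.79 and 0.73, all called at both rates. Grb10, Cblb, Grb14, Ptpn1, Phlpp2 and Pik3r2 were called again at both rates in both pairs with hippocampus.

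Of the 36 other pathway genes, 6 were higher and 13 lower in hypothalamus than in hippocampus, 9 higher and 5 lower in accumbens than in hippocampus, and 11 higher and 1 lower in accumbens than in hypothalamus. Over all genes the shares, higher and lower, were 22.9% and 21.1%, 14.2% and 13.7%, and 13.9% and 15.1% for the same pairs. Ksr1, a scaffold of the RAF-MEK-ERK cascade, had log2 differences of -2.99 in hypothalamus and -2.06 in accumbens from hippocampus. Dusp6, a phosphatase of ERK, had -1.79 and -1.04. Foxo1 was highest in accumbens, by 1.05 over hypothalamus and by 0.54 over hippocampus.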

How the data were processed

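The authors deposited 1 table of read counts per Ensembl gene for 52 libraries, without normalization. The submitters' processing notes name STAR, featureCounts and GRCm38.p4; versions, strand setting and annotation release: not given in the sources used here. A count per gene merges isoforms, and PCR copies may be counted more than once, since no molecular identifiers are stated. Symbols, exon lengths and GC came from GENCODE M21, which named 45229 genes. Of 125 pairs of libraries within groups, 0 agreed within sampling noise.

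The 35 members and all lists were chosen with earlier results of these data known. Each region was fitted with its 3 infusions, and the saline libraries of all regions together, in edgeR 4.0.16 (R 4.3.3): TMM, filterByExpr and the robust quasi-likelihood test, 2-sided, with Benjamini-Hochberg adjustment over all genes and a threshold of 0.05. CPM uses TMM-scaled library sizes. DESeq2 1.42.0, other size factors, no filter, batch terms, the lean covariates, subsets and leaving out each library were alternatives; the length lean was added after seeing the data. The fits were tested on simulated counts. Values per library are printed for members called with insulin, the 3 with the smallest p per region and up to 5 largest called differences per region pair. Sos1, Pik3ca, Ptpn1, Map2k1 and other members named beyond these 14 were chosen after their values were seen.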

Additional observations from a re-analysis of the deposited data

Results flagged for a closer look

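For each of the 14 genes with values printed per library, each group was searched for a library whose gap to its nearest neighbour was large against the group's range (Dixon's criterion at the 95% level). Of 126 groups, 11 held such a library, where chance alone marks about 1 in 20. The 14 genes share the same libraries, so the searches are not independent and no excess is read from this count. In hippocampus saline library 1 stood apart for 4 genes, low for Pik3r3 (31.3 CPM), Cbl (4.93) and Pdpk1 (186) and high for Pik3r2 (169). Hippocampus high-rate library 1 was low for Cblb (39.9) and Pdpk1 (154), and low-rate library 5 was low for Cblb (27.4). In accumbens high-rate library 1 was high for Sh2b1 (40.2). Each of these 4 libraries has a GC lean above 0.4. The other 3 concern Pik3r3, at 84.7 CPM in hypothalamus high-rate library 3, 51.4 in accumbens low-rate library 3 and 74.1 in accumbens high-rate library 6, and none of these libraries leans.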

How the results depend on the processing

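In hypothalamus at the low rate the 3 calls became 10 at a threshold of 0.1, 8 with DESeq2, 1 with the length lean or both leans as covariates, without libraries lacking a peptide or with only the 2 infusions compared, and 0 with the tag range, the tag run or the GC lean in the model or without GC-leaning libraries. Leaving out 1 library gave 1 to 15, with 13 without saline library 3 or low-rate library 1 and 15 without saline library 4. At the high rate the 1 call became 2 at 0.1 or with DESeq2, and 0 with no filter, with either tag term, with the GC lean, without leaning or peptide-lacking libraries, with 2 infusions or with all 52 libraries; leaving out 1 library gave 0 to 11, with 11 without saline library 4. The cause was not tested. Except for DESeq2, the counts in this paragraph stand without the share of all genes called in the same setting. They describe the members' count only. Calls between saline regions became 26 for hypothalamus against hippocampus averaged over infusions. For accumbens against hippocampus 11 became 19 with the GC lean, 18 with the length lean or without leaning libraries, and 23 averaged over infusions. For accumbens against hypothalamus 7 became 17 at 0.1 or averaged over infusions, 11 in high-rate libraries or with the length lean, and 6 to 15 when 1 library was left out, with 15 without saline hypothalamus library 3 or 4. Of the gene values, 3 reversed: Cbl between accumbens and hypothalamus (-0.64 in low-rate and -0.20 in high-rate libraries) and Sh2b2 between accumbens and hippocampus (-0.40 in low-rate libraries). No interaction count changed by over 1.5 times. Low counts (5 to 286 reads of Cbl per library) limit the precision of single libraries.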
